A study of Mus musculus with 15 samples.

Results

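The insulin-like growth factor axis was followed in mouse myeloid cells transformed by MLL-ENL through 8 genes, which were taken by symbol from a table of 53379 genes. They were the ligand gene Igf1, the receptor genes Igf1r and Igf2r, the adaptor genes Irs1 and Irs2, the binding protein gene Igfbp4 and the genes of the mRNA-binding proteins Igf2bp2 and Igf2bp3. Of the 8 genes, 6 reached 10 normalised reads in at least 3 of the 15 libraries and were tested together with 12673 genes in all. Irs1 and Igf2bp2 fell below this limit and are given as reads only. Igf1 passed through its 3 libraries of C1 WT cells alone, so a difference between that group and the others was built into its selection. Such differences of Igf1 are given as reads, and calls on them enter only the tallies of how the results depend on the processing.

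MLL-ENL is a leukaemic fusion oncogene, and it was brought by retrovirus into fetal liver cells of mice with loxP-flanked Cebpa and Cebpb (Cebpa fl/fl, Cebpb fl/fl). Cebpa and Cebpb encode the myeloid transcription factors C/EBPα and C/EBPβ. C1 and C2 are 2 transformed clones derived from different mice. In the WT cells of both clones the C/EBP genes are present and no GFP vector is listed, whereas the dKO cells have lost Cebpa and Cebpb after treatment with TAT-Cre, a recombinase that enters cells, and carry GFP. The LAPS cells of C1 are dKO cells with GFP and the rat C/EBPβ isoform LAP*. Each of the 5 groups comprised 3 RNA samples isolated at different times from 1 cell line kept in murine IL-3 (10 ng/ml), so the p-values measure the spread within a line. Each dKO line is 1 surviving clone, and gene loss, selection of survivors and the GFP vector cannot be told apart. The authors pooled partly deleted clones before the final TAT-Cre treatment, so a dKO line may descend from another parental clone than its WT line. The LAPS cells are also 1 line, so LAP* and other differences between the LAPS and dKO lines cannot be told apart. In bulk RNA, fewer cells that express a gene and less RNA per cell cannot be told apart either.

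The libraries held 9212237 to 13613500 reads on genes. Cebpa and Cebpb were at 0 in all dKO libraries, and Cebpb stood at 2538 to 4216 normalised reads in the LAPS libraries, which carry the rat transgene. Cebpe, a related factor of late granulocytes, was at 371 to 517 normalised reads in WT cells, 2022 to 2272 in dKO and 1653 to 2106 in LAPS cells. All 8 markers of transformed myeloid progenitors in the list used (Ptprc, Kit, Itgam, Fcgr3, Spi1, Mpo, Hoxa9, Meis1) lay above 3 reads in every group, and no lymphoid marker did in any. Normalised reads are counts divided by a size factor for each library, so that 3 reads, the floor used here, equal 2.65 to 4.01 normalised reads.

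IGF1 is a secreted growth and survival factor that binds the receptor tyrosine kinase IGF1R. The active receptor phosphorylates the adaptors IRS1 and IRS2, which recruit PI3 kinase and thereby AKT and mTOR. IGF2R carries IGF2 and mannose-6-phosphate-tagged enzymes to lysosomes and has no kinase, binding proteins such as IGFBP4 hold IGFs away from the receptor, and the IGF2BP proteins bind and stabilise mRNAs. Macrophages are a known source of IGF1 in many tissues.

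Igfbp4 was the 1 gene of the axis that rose in the dKO cells of both clones, 4.88-fold in C1 and 5.87-fold in C2, and in the LAPS cells its values spanned those of the C1 dKO cells. Irs2 was higher in LAPS than in C1 dKO cells, as was Igf2r, whose call ended when any library was left out. Igf1 reads were found mainly in C1 WT cells, and Igf1r moved in opposite directions in the clones. In C1, 3 of the 8 genes were higher in dKO than in WT cells (Igf1r, Igf2r and Igfbp4; 17.1% of all tested genes were called higher). Of the 5 tested genes other than Igf1, none was called lower by limma, edgeR or DESeq2, nor at an unadjusted p under 0.05 in limma (19.9% of tested genes were called lower), while Igf2bp2 was called lower once the limit on low values was dropped. In C2, 2 were higher (Igfbp4 and Igf2bp3; 17.4% of tested genes) and 2 lower (Igf1r and Irs2; 20.1%). A call here is an adjusted p under 0.05 in limma over all tested genes.

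**Figure D1:**
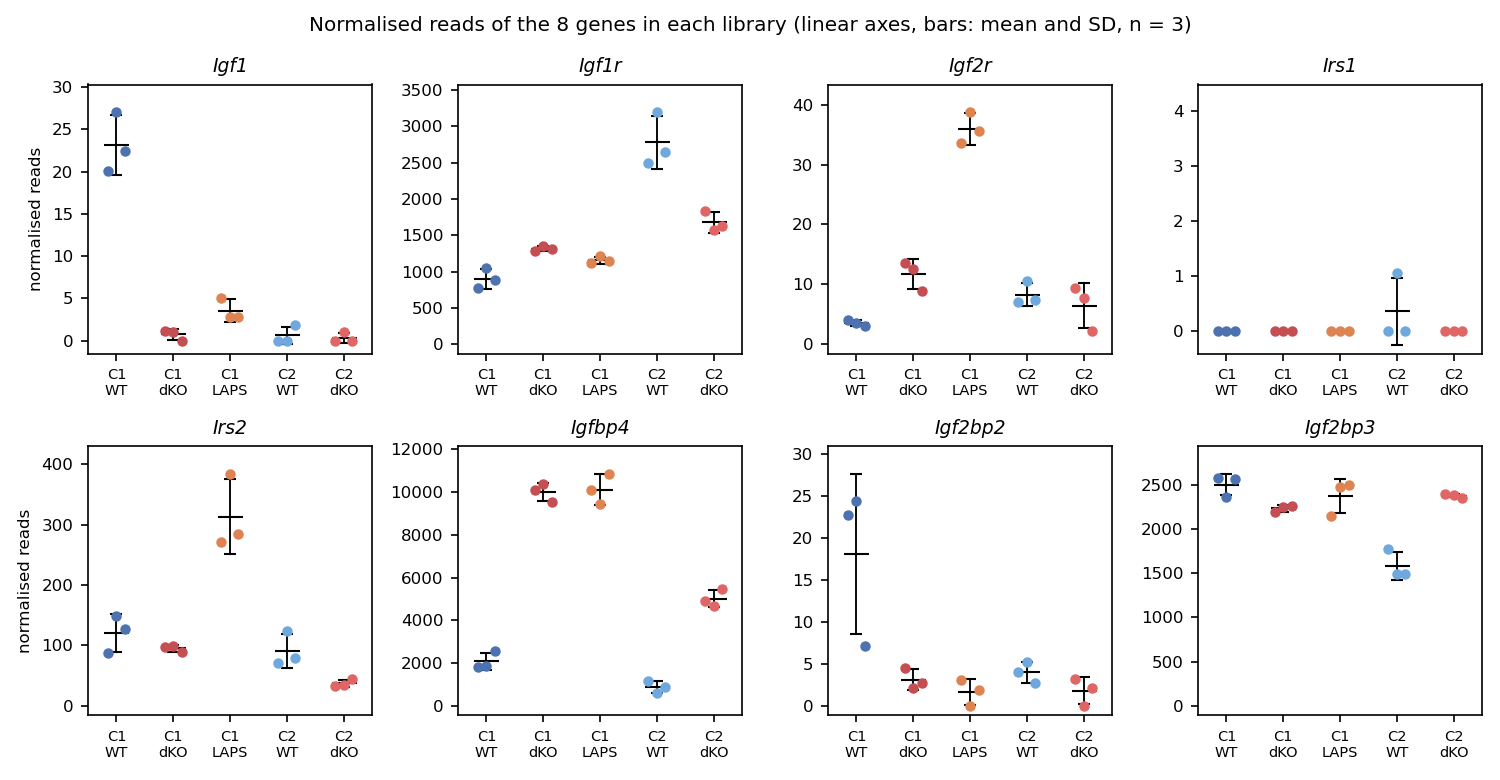
Normalised reads (y axis, linear, one scale per panel) of the 8 genes in the 15 libraries of the 5 groups (x axis); each point is a library, and the bars give the mean and SD of 3. Igfbp4 lies at 4689 or more in every dKO and LAPS library and at 2543 or less in every WT library, and Igf1 reaches 20.1 only in C1 WT cells.

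The genes differed widely in level. Per kilobase of exon, Igfbp4 was the most abundant of the 8 in C1 WT cells, at 469 ± 92.5 normalised reads per kb (SD, n = 3), followed by Igf2bp3 at 307 ± 15, Igf1r at 53.5 ± 8.40 and Irs2 at 19.1 ± 4.97. Igf2bp2 (2.44 ± 1.29 per kb) and Igf1 (2.34 ± 0.36 per kb) came next with overlapping libraries, and Igf2r stood at 0.38 ± 0.051 per kb. The first 4 places kept their genes in all 5 groups. In C2 WT cells the leading genes were not separated, since Igfbp4 (199 ± 62.0 per kb) overlapped Igf2bp3 (194 ± 19.7 per kb), which overlapped Igf1r (166 ± 21.8 per kb). In the dKO cells Igfbp4 led without overlap, at 2264 ± 93.9 per kb in C1 and 1134 ± 89.2 per kb in C2.

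**Figure D2:**
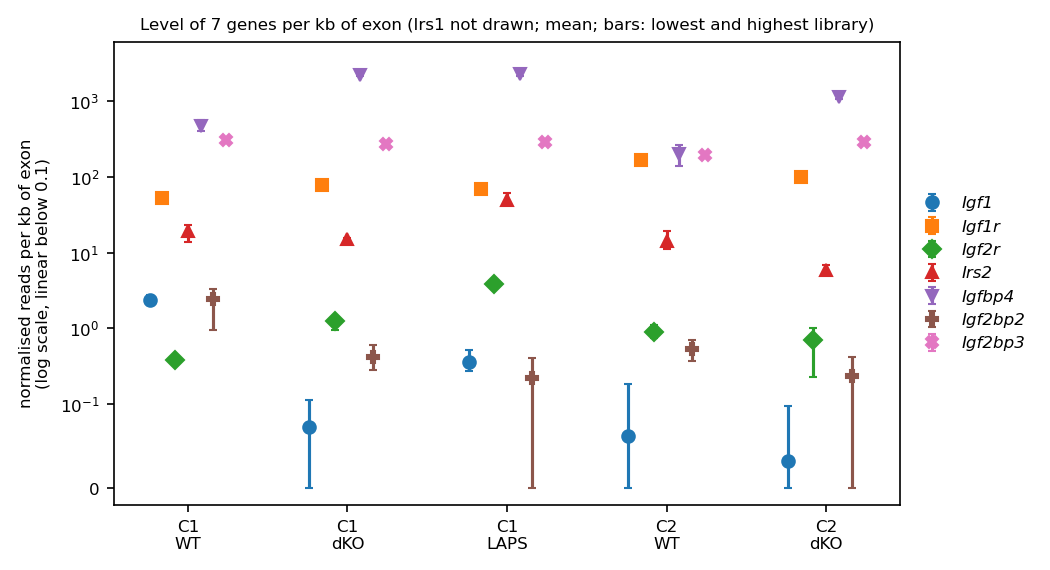
Mean normalised reads per kb of exon (y axis, log scale, linear below 0.1) of 7 genes in the 5 groups (x axis); bars run from the lowest to the highest of 3 libraries. Igfbp4 has the highest mean in every group, from 199 per kb in C2 WT to 2292 per kb in C1 LAPS cells. In C2 WT cells its libraries overlap those of Igf2bp3. Igf1 is above 2 per kb in C1 WT cells only.

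Since the deleted factors bind DNA, the promoters of 4 genes are shown, those of the binding protein, both receptors and the expressed adaptor, which were chosen after the values had been seen. Each is the 250 bases before the RefSeq start site (GRCm38.p6), 5′ to 3′ on the gene's strand, and the capitals mark motif letters. They are chr11:99040994-99041243 (plus strand) for Igfbp4, chr7:67952007-67952256 (plus) for Igf1r, chr17:12769707-12769956 (minus) for Igf2r and chr8:11008930-11009179 (minus) for Irs2.
Igfbp4: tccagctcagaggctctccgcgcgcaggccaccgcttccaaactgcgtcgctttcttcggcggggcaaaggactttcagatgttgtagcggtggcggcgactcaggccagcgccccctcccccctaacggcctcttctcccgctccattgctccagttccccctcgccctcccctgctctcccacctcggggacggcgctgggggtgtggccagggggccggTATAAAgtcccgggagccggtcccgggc
Igf1r: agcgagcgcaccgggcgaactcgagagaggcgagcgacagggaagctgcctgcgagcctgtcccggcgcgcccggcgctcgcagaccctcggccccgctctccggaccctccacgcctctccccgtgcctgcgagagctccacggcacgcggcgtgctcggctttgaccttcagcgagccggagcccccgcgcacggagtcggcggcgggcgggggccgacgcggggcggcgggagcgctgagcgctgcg
Igf2r: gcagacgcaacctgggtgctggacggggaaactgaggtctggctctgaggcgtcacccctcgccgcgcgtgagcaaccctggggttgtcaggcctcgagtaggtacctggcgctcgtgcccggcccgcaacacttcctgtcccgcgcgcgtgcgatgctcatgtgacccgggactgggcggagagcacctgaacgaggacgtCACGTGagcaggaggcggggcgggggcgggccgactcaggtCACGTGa
Irs2: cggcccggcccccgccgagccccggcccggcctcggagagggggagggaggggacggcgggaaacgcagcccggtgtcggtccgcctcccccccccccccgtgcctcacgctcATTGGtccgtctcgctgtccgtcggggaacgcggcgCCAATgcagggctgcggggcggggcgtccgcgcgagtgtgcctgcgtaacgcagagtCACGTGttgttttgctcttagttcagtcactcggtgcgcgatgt
The C/EBP consensus letters TTGCNNAA, sought on both strands, were in none of the 8 promoters of the axis and in 9.56% of 32851 mouse promoters of this length. With 8 promoters this cannot be told from that share, and sequence outside these windows was not searched. The CCAAT box was in 3 of the 8 (Igf1, Irs2 and Igf2bp3) and in 33.8% of all. CACGTG and TATAAA were added after the sequences had been read, so their counts are descriptions of what prompted the search. CACGTG, an E-box, was in 4 of the 8 (Igf2r, Irs1, Irs2 and Igf2bp3) and in 6.02% of all promoters, with a pair in Igf2r at 48 and 7 bases before the start and 1 in Irs2 at 44 bases. TATAAA was in 1 of the 8, Igfbp4, 28 bases before its start, and in 12.4% of all promoters. The motifs do not overlap each other in these windows. The window of Igf1 lies within GENCODE exons of Igf1 itself, is counted among the 8 and is not printed.

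Igf1 (chromosome 10, 87858265 to 87937042, plus strand, mm10) was read mainly in the WT cells of C1. Its normalised reads there were 20.1, 27.1 and 22.4, from 67 reads in all. In C1 dKO cells they were 1.13, 1.05 and 0, and in C1 LAPS cells 5.08, 2.77 and 2.74. C2 cells were at the floor in both groups, with 0, 0 and 1.83 in WT and 0, 0.97 and 0 in dKO. Thus C1 WT lay above every other group without overlap, and C1 LAPS lay above C1 dKO.

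In reads, Igf1 had 67 in C1 WT cells, 2 in C1 dKO, 11 in C1 LAPS, 2 in C2 WT and 1 in C2 dKO cells. The ratio of LAPS to dKO, which does not involve C1 WT, was 5.16 (exact 95% counting interval 1.13 to 47.9, which covers counting error only), and the fitted difference on the log2(normalised reads + 1) scale missed the threshold (log2 1.43, 95% interval 0.37 to 2.49, adjusted p = 0.128). No fold is given within C2, where both groups were at the floor.

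In C1, a list of 12 monocyte and macrophage markers was lower in dKO than in WT cells, as Igf1 reads were. Its summed level was 21399 to 27646 normalised reads in C1 WT, 10813 to 14492 in C1 dKO, 7028 to 8491 in C1 LAPS, 4283 to 8018 in C2 WT and 3273 to 4960 in C2 dKO cells. In C1, 8 of its 9 tested genes were lower in dKO than in WT cells (19.9% of all tested genes were) and 1 was not called. Marco and Ms4a7 reached the limit for the test through C1 WT cells alone, so their differences from that group were built in. In C2, where Igf1 was at the floor, 1 was higher (Adgre1), 3 lower and 5 not called. Of all tested genes, 17.4% were called higher and 20.1% lower in C2, and 3.03% lower in LAPS against dKO cells. In LAPS against dKO cells 1 was lower (Lyz2, from a mean of 8240 to 3680 normalised reads) and 8 were not called. Marco was at 0 in C1 dKO cells, and Marco, C1qa, C1qb and C1qc were at 0 in both C2 groups. The part of these cells in the Igf1 result was not tested.

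Igf1r (chromosome 7, 67952827 to 68233668, plus strand) was present in every library. C1 WT cells had 768, 1048 and 878 normalised reads, and C1 dKO cells had 1280, 1357 and 1317. C2 started higher, with 2497, 3194 and 2654 in WT, and reached 1841, 1567 and 1630 in dKO cells. The WT and dKO libraries did not overlap in either clone, but dKO was the higher group in C1 and the lower in C2.

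The receptor gene rose 1.48-fold in C1 (log2 0.56, SE 0.11, adjusted p = 0.000647) and fell in C2 (log2 -0.72, SE 0.11, adjusted p = 7.26e-05). The effects differed by -1.29 on the log2 scale (SE 0.15, adjusted p = 1.53e-05; 14.3% of tested genes had a lower effect in C2). C2 WT exceeded C1 WT 3.10-fold (log2 1.63, adjusted p = 7.66e-09), and C2 dKO cells lay above all C1 dKO libraries. LAPS cells had 1117, 1208 and 1142 normalised reads, all below the C1 dKO libraries, yet this difference missed the threshold (log2 -0.19, 95% interval -0.42 to 0.039, adjusted p = 0.381). LAPS cells stayed above WT (log2 0.37, adjusted p = 0.0137), a call lost without C1 WT replicate 1 (log2 0.27, adjusted p = 0.0805), without C1 LAPS replicate 2 (log2 0.34, adjusted p = 0.0513) and with only the compared groups in the fit (adjusted p = 0.0599).

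Igf2r (chromosome 17, 12682406 to 12769664, minus strand) was low throughout and highest in LAPS cells. Its normalised reads were 4.01, 3.61 and 3.06 in C1 WT, 13.6, 12.6 and 8.83 in C1 dKO and 33.5, 38.7 and 35.6 in C1 LAPS cells. These 3 groups did not overlap. In C2 it had 6.97, 10.5 and 7.33 in WT and 9.42, 7.78 and 2.15 in dKO cells, which did overlap. Per library these are 2 to 42 reads.

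Within C1, Igf2r rose from WT to dKO (log2 1.46, SE 0.38, adjusted p = 0.00686) and was higher in LAPS than in WT cells (log2 3.02, adjusted p = 1.39e-05). With so few reads the sizes moved with the method, from log2 0.95 to 1.72 for the first and 2.26 to 3.36 for the second, each called under every alternative that tested Igf2r. The step from dKO to LAPS was called (log2 1.56, SE 0.38, adjusted p = 0.0302), but leaving out any of the 6 libraries gave an adjusted p of 0.0572 to 0.108 at log2 1.39 to 1.67. By reads it was 3.14-fold (114 against 34 reads, exact interval 2.13 to 4.76, which covers counting error only and not the spread between libraries). C2 showed no call (log2 -0.47, 95% interval -1.28 to 0.34, adjusted p = 0.363), and the effects differed between clones (log2 -1.93, SE 0.54, adjusted p = 0.0134; range over methods -2.24 to -1.22, with 0.0538 in DESeq2). C2 WT exceeded C1 WT (log2 1.01, adjusted p = 0.0456), a call that was lost when any of those 6 libraries was left out (adjusted p 0.0598 to 0.148).

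Irs1 (chromosome 1, 82233101 to 82291416, minus strand), the adaptor of many insulin-responsive tissues, had 1 read in all 15 libraries together. That read was in C2 WT replicate 2. Expression of Irs1 was therefore not detectable at this depth in 4 of the groups, where 0 reads allow up to 3 reads per library. Its exons share 30.3% of 76-base windows with Gm9747, a gene annotated as protein-coding on the opposite strand, which had 0 reads.

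Irs2 (chromosome 8, 10984681 to 11008458, minus strand) was the adaptor expressed. C1 WT cells had 87.0, 149 and 127 normalised reads and C1 dKO cells 97.4, 99.7 and 89.1, with overlap. C1 LAPS cells had 271, 384 and 285, all above every other library of the study analysed here. C2 WT cells had 70.7, 124 and 78.8, and C2 dKO cells had 33.5, 34.0 and 44.0, all below them.

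In LAPS cells Irs2 was 3.23-fold higher than in C1 dKO cells (log2 1.69, SE 0.23, adjusted p = 0.000478) and 2.61-fold higher than in C1 WT cells (log2 1.38, adjusted p = 0.000185). In this comparison of LAPS with dKO cells, 2 of the 8 genes were higher (Irs2 and Igf2r) against 1.43% of all tested genes, and 0 were lower against 3.03%. Without any 1 of the 6 libraries only Irs2 was called higher. At an unadjusted p under 0.05 in limma 3 were higher and 0 lower, Igf1 being the third, and edgeR and DESeq2 called 0 lower. In the same comparison 9 neutrophil and 6 eosinophil markers were called lower and 0 higher. The part of these cells in the Irs2 and Igf2r results was not tested. Irs2 was lower in dKO than WT cells of C2 (log2 -1.24, SE 0.23, adjusted p = 0.000475). In C1 the change was not called (log2 -0.31, 95% interval -0.79 to 0.18, adjusted p = 0.316). The effects differed by log2 -0.93 (adjusted p = 0.0400), a call that 7 of 12 omissions of a library ended (adjusted p up to 0.109), namely C1 WT replicate 1, any C1 dKO replicate, C2 WT replicate 2 and C2 dKO replicates 1 and 2. The WT cells of the clones were not called different (log2 -0.42, adjusted p = 0.162) unless C1 WT replicate 1 (log2 -0.63, adjusted p = 0.0416) or C2 WT replicate 2 (log2 -0.66, adjusted p = 0.0331) was left out.

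Igfbp4 (chromosome 11, 99041244 to 99054392, plus strand) showed the largest rise of the 6 tested genes from WT to dKO cells in both clones. C1 WT cells had 1805, 1872 and 2543 normalised reads, and C1 dKO cells had 10091, 10355 and 9542. C2 WT cells had 1162, 615 and 862, and C2 dKO cells had 4889, 4689 and 5449. In each clone the lowest dKO library lay above the highest WT library. LAPS cells had 10078, 9427 and 10853, a wider range that took in all 3 C1 dKO libraries.

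The fold over WT was 4.88 in C1 (log2 2.29, SE 0.17, adjusted p = 4.77e-08) and 5.87 in C2 (log2 2.55, SE 0.17, adjusted p = 1.69e-08). The effects differed by log2 0.27 (95% interval -0.25 to 0.78, adjusted p = 0.454), and LAPS differed from dKO by log2 0.016 (95% interval -0.35 to 0.38, adjusted p = 0.981). These intervals bound a difference that was not called and do not show equal levels. The WT cells of the clones differed in level, with C2 WT lower than C1 WT (log2 -1.27, adjusted p = 1.99e-05). Among all tested genes, 5.69% were called higher in the dKO cells of both clones.

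Markers of other cell types also differed between dKO and WT cells, not all of them in both clones. Of all tested genes, 17.1% were called higher and 19.9% lower in C1 dKO cells, and 17.4% and 20.1% in C2. In LAPS against dKO cells 3.03% were called lower. The summed level of 8 eosinophil markers was 136 to 238 normalised reads in C1 WT, 9037 to 17580 in C1 dKO and 1146 to 2244 in C1 LAPS cells, and 22.0 to 32.1 in C2 WT and 273 to 381 in C2 dKO cells. Of the 7 tested, 7 were higher in C1 dKO than WT, and 5 were higher and 1 lower in C2; Prg2, Prg3, Epx and Ear1 were at 0 in C1 WT cells. The list fell in LAPS cells (6 of 7 lower than in dKO). A list of 9 neutrophil markers summed to 21730 to 28538 in C1 WT, 89221 to 112012 in C1 dKO and 35660 to 40260 in C1 LAPS cells, and to 50767 to 91296 in C2 WT and 58397 to 92079 in C2 dKO cells, with no marker at 0. All 9 were higher in C1 dKO than WT and lower in LAPS than dKO cells, whereas in C2 the sums overlapped and 3 were higher, 1 was lower (Ly6g) and 5 were not called.

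A list of 8 mast cell and basophil markers summed to 73.4 to 105.7 in C1 WT, 1709.5 to 1984 in C1 dKO and 407 to 494 in C1 LAPS cells, and to 170.4 to 180.2 in C2 WT and 890.4 to 1331 in C2 dKO cells. Of its 4 tested genes, 4 were higher in C1 dKO than WT, and in C2 2 were higher (Cpa3 and Gata2) and 1 lower (Ms4a2). Cpa3, a mast cell protease gene, averaged 0 in C1 WT, 1455 in C1 dKO and 123 in C1 LAPS cells, and 0.99 and 568 in C2 WT and dKO cells. The defining markers Tpsb2 and Mcpt4 were at 0 in all 5 groups. Of the 8 progenitor markers, 4 were higher (Kit, Mpo, Fcgr3 and Itgam) and 2 lower (Hoxa9 and Meis1) in C1 dKO than WT cells, and 4 were higher (Kit, Mpo, Fcgr3 and Ptprc) and 4 not called in C2. The rises of Kit (log2 1.20 in C1 and 2.16 in C2) and Mpo (log2 2.29 and 3.08) were the largest of these, and neither gene was called in LAPS against dKO (adjusted p = 0.0608 for Kit and 0.97 for Mpo). Of the 7 stromal markers, the 1 tested, Pdgfrb, averaged 10.2, 53.4 and 61.0 normalised reads in C1 WT, dKO and LAPS cells and 2.99 and 98.5 in C2 WT and dKO cells. It was called higher in the dKO cells of both clones (log2 2.32 and 4.68) and not in LAPS against dKO (log2 0.19, adjusted p = 0.759), while Col3a1, Dcn and Lum were at 0 in all groups. Of the 6 hepatic markers, the 1 tested, Afp, averaged 31.9, 8.49 and 6.41 normalised reads in C1 WT, dKO and LAPS cells. In C2 it averaged 129.8 in WT and 78.7 in dKO cells. Afp was called lower in the dKO cells of both clones and was not called in LAPS against dKO. Alb, Ttr, Apoa1 and Serpina1a were at 0 in all groups. These genes were named after their values were seen. The part of these cells in the Igfbp4 result was not tested.

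Igf2bp2 (chromosome 16, 22059009 to 22163299, minus strand) had few reads and was below the limit for the test. C1 WT cells had 22.8, 24.4 and 7.13 normalised reads, and C1 dKO cells had 4.53, 2.10 and 2.65. LAPS cells had 3.05, 0 and 1.82, C2 WT cells 3.98, 5.24 and 2.75 and C2 dKO cells 3.14, 0 and 2.15. C1 WT lay above all other groups, with replicate 3 well under the other two. By reads the ratio of C1 WT to C1 dKO was 5.93 (51 against 9 reads, exact interval 2.89 to 13.7), and of C2 WT to C2 dKO 2.30 (12 against 5, interval 0.75 to 8.32). These intervals cover counting error only and leave out the spread between libraries. With no limit on low values, limma called it lower in C1 dKO than WT (log2 -2.10, adjusted p = 0.025), in LAPS than C1 WT (log2 -2.91, adjusted p = 0.00285) and in C2 WT than C1 WT cells (log2 -1.80, adjusted p = 0.0484).

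Igf2bp3 (chromosome 6, 49085223 to 49214957, minus strand), the abundant family member here, changed little in C1. It had 2577, 2362 and 2571 normalised reads in C1 WT, 2191, 2251 and 2265 in C1 dKO and 2146, 2477 and 2501 in C1 LAPS cells. C2 WT cells had 1770, 1496 and 1487, and C2 dKO cells had 2399, 2382 and 2358. The C2 WT libraries were thus the lowest of the 15, and the C2 dKO libraries lay within the range of C1. In C2 the gene rose 1.51-fold (log2 0.59, SE 0.077, adjusted p = 2.12e-05). In C1 the change was not called (log2 -0.16, 95% interval -0.33 to 0.0022, adjusted p = 0.115), and the effects differed (log2 0.75, SE 0.11, adjusted p = 9.57e-05; 15.1% of tested genes had a higher effect in C2). LAPS did not differ from dKO by the test (log2 0.084, 95% interval -0.081 to 0.25, adjusted p = 0.633). Exons of Igf2bp3 share 17.8% of 76-base windows with Malsu1, a protein-coding gene on the opposite strand, which had at most 203 reads in a library.

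**Figure D3:**
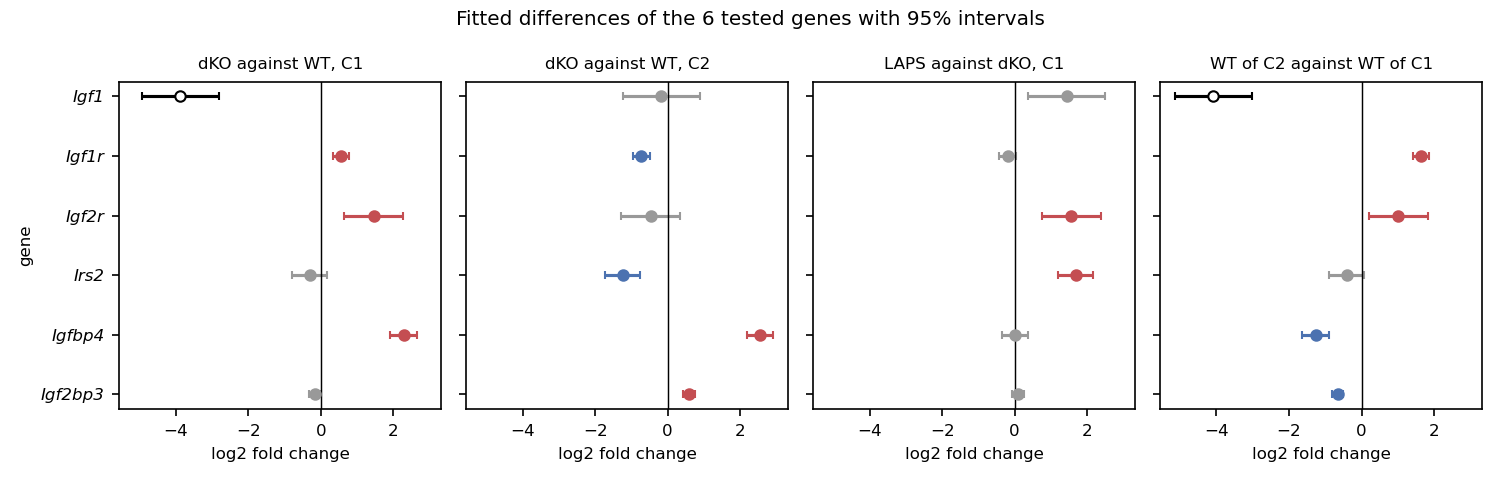
Fitted log2 fold changes (x axis) of the 6 tested genes (y axis) in 4 comparisons, with 95% intervals; red is called higher, blue called lower and grey not called, and the open black points are Igf1 where the C1 WT cells that brought it into the test are compared. Igfbp4 is called higher in the dKO cells of both clones (log2 2.29 and 2.55) and lies at log2 0.016 for LAPS against dKO, where Irs2 (1.69) and Igf2r (1.56) are called.

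Set against WT, the LAPS cells had 4 of the 8 genes higher (Igf1r, Igf2r, Irs2 and Igfbp4; 14.2% of tested genes). Of the 5 tested genes other than Igf1, none was called lower by limma, edgeR or DESeq2, nor at an unadjusted p under 0.05 in limma (18.3% of tested genes were called lower), while Igf2bp2 was called lower once the limit on low values was dropped. Between the WT cells of the clones, Igf1r and Igf2r were higher in C2 WT (19.7% of tested genes) and Igfbp4 and Igf2bp3 lower (21.3%). The Igf2r call there ended when any library was left out. The dKO and LAPS comparisons in C1 share libraries, and so do the WT comparisons, so their values stand side by side and are not independent.

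For each tested gene, the 3 of the other tested genes whose log2 values followed it most closely were listed by Pearson's r over the 15 libraries. These libraries fall into 5 groups, so r mostly follows group means. Igfbp4 ran with Zfp35 (r = 0.977), Gtf2i and Atxn7l3b, which like it were higher in dKO than WT means in both clones, although Zfp35 moved less, from 624 to 851 normalised reads in C1 and from 481 to 735 in C2. Igf1 ran with Col4a5 (r = 0.932), Klf4 and Il7r, a likeness set by the C1 WT libraries that also brought Igf1 into the test. Irs2 ran with Fn1, the fibronectin gene (r = 0.909), which averaged 47.9, 9.41 and 104 normalised reads in WT, dKO and LAPS cells of C1, and with Gas2 and Med23. Igf1r ran with Lat2 (r = 0.971), Ahsa2 and Nacc2, Igf2r with Itm2a (r = 0.896), Ubtd2 and Taf2, and Igf2bp3 with Gria3 (r = 0.957), Sgip1 and Gpr65. Among the members, Igf1r and Igf2bp3 ran most strongly against each other (r = -0.86).

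The wider pathway was read from a list of 72 other genes. Of these, 52 were tested, and the rest included Igf2, Ins1 and Ins2, each at 0 in all libraries. Igf1 was therefore the 1 ligand gene of the list and the members with any read. Of the other IGF-binding protein genes, Igfbp1, Igfbp2 and Igfbp3 were at 0 in all libraries, as was Pappa, whose product cleaves IGFBP4.

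In C1, 12 of the 52 were higher in dKO than WT cells, 11 lower and 29 not called, with a median log2 change of 0.0019 against -0.015 over all tested genes. Placing genes with a group at the floor at their bound moved that median to 0.032. In C2, 11 were higher, 13 lower and 28 not called (median -0.042 against -0.027). In both clones 3 were higher (Hmga2, Pik3cd and Pik3r3), or 5.77% of the 52 against 5.69% of all tested genes, and 5 were lower (Gab1, Inppl1, M6pr, Pik3ca and Rheb), or 9.62% against 8.36%. Of the 25 PI3K, AKT and mTOR genes, 6 were higher and 4 lower in C1, and 4 higher and 7 lower in C2, beside 17.1% and 19.9% of all tested genes in C1 and 17.4% and 20.1% in C2. In opposite directions moved Grb14, higher in C1 and lower in C2, and Igfbp7, lower in C1 and higher in C2. Each is 1.92% of the 52, beside 2.12% and 1.98% of all tested genes with those orders of signs. Igfbp7 fell in C1 (log2 -0.998, adjusted p = 0.0181) and rose in C2 (log2 3.44, adjusted p = 4.19e-07). Both genes were named after their values were seen. The Igfbp7 fall in C1 was not called without C1 WT replicate 1 or 2 or C1 dKO replicate 1 (adjusted p 0.0622 to 0.0959) or with only the compared groups in the fit (0.0692), and the Grb14 rise in C1 was not with pseudocount 0.1 (0.193).

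The 3 genes called the same way in both clones with a log2 change of at least 1 were Hmga2, Pik3r3 and Gab1. Hmga2, a chromatin protein gene and let-7 target, was at 0 in all WT libraries and reached 84.7 to 161 normalised reads in C1 dKO and 179 to 269 in C2 dKO cells, at least 36.3-fold and 78.5-fold higher against 3 reads per library. Pik3r3, a regulatory subunit of PI3 kinase, rose from a mean of 6.66 to 24.5 in C1 and from 31.9 to 89.4 in C2. Gab1, an adaptor that also binds PI3 kinase, fell from a mean of 43.9 to 4.65 in C1 and from 22.6 to 3.14 in C2, where 1 dKO library held all 9 reads; its C1 call was lost with pseudocount 0.1 (adjusted p = 0.0527). Of these 3 genes, none was called in LAPS against dKO cells by limma (adjusted p 0.0818 to 0.691), although Pik3r3 was called higher with pseudocount 5 (log2 0.69, adjusted p = 0.0461). At an unadjusted p under 0.05, Pik3r3 was higher and Hmga2 lower.

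**Figure D4:**
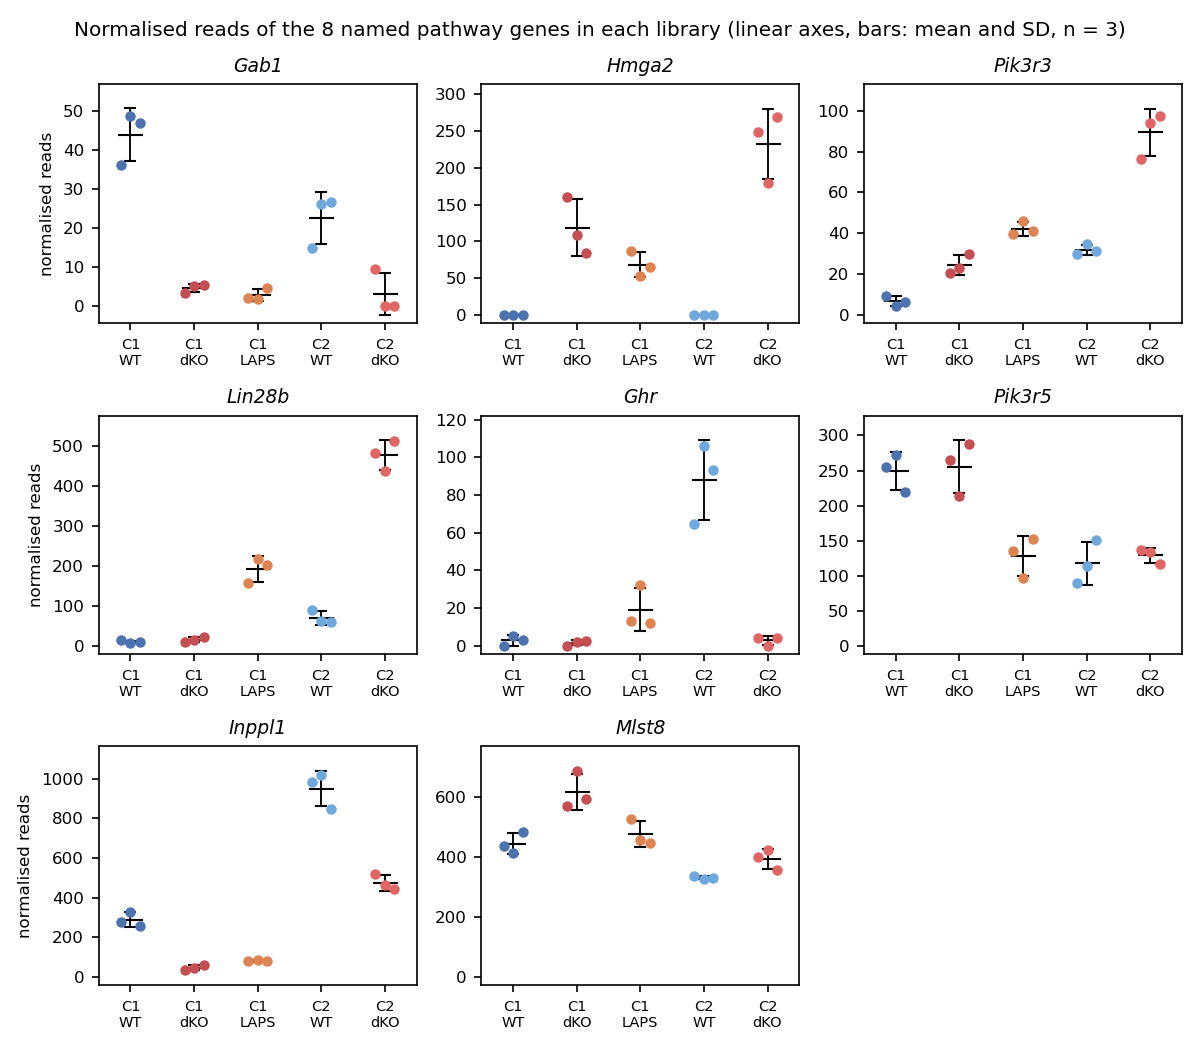
Normalised reads (y axis, linear, one scale per panel) of 8 other pathway genes in the 15 libraries of the 5 groups (x axis), with the mean and SD of 3 as bars. Hmga2 is at 0 in all WT libraries and at 52.5 or more elsewhere, and Lin28b is at 156 or more in every LAPS library against 22.1 or less in C1 dKO cells and 436 or more in C2 dKO cells.

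The median log2 change of the 52 in LAPS against dKO cells was -0.0036 against 0 over all tested genes. In LAPS cells 3 of the 52 were higher than in dKO cells (1.43% of all tested genes were) and 3 lower (3.03%). Of these 6, the 5 with the largest changes follow. Lin28b, which blocks let-7 maturation, had 10.2 to 22.1 normalised reads in C1 dKO and 156 to 218 in LAPS cells (log2 3.58, SE 0.26, adjusted p = 8.35e-07). In C2 dKO cells, which carry no LAP*, it had 436 to 511 against 59.55 to 89.6 in C2 WT (log2 2.77, adjusted p = 6.33e-07). Ghr, the growth hormone receptor gene, rose from 5 to 61 reads (log2 3.02, SE 0.74, adjusted p = 0.0303), and in C2 it fell from 268 reads in WT to 8 in dKO cells (log2 -4.85, adjusted p = 9.07e-05). Inppl1, a phosphoinositide phosphatase gene that was lower in dKO than WT cells of C1 (log2 -2.64), rose by log2 0.83 (adjusted p = 0.00818) and stayed below WT (log2 -1.82, adjusted p = 4.01e-07). Pik3r5, a regulatory subunit of PI3 kinase γ, fell from a mean of 256 to 128 normalised reads (log2 -1.01, adjusted p = 0.00690). Mlst8, an mTOR complex subunit gene, was lower (log2 -0.37, SE 0.099, adjusted p = 0.0425). Of these 5 calls, that of Lin28b held under every alternative run. With only the compared groups in the fit, Ghr, Inppl1, Pik3r5 and Mlst8 were not called (adjusted p 0.0637 to 0.126). Leaving out a library ended the Ghr call in 5 of 6 cases (C1 dKO replicates 1 and 2 and every LAPS replicate; adjusted p up to 0.124) and the Mlst8 call in 5 of 6 (every C1 dKO replicate and LAPS replicates 2 and 3; adjusted p up to 0.196). Nor was Ghr called with pseudocount 0.1 (adjusted p = 0.166), or Mlst8 with no filter, quantile normalisation or the replicate block (adjusted p 0.0615 to 0.0649).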

How the data were processed

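The authors prepared stranded, poly(A)-selected mRNA libraries, read them as paired 76-base ends, aligned them to mm10 with STAR (2.5.3a) and counted reads per gene with HTSeq (0.10.0). Whether counting used strand is not given in the sources used here. The deposited values are a signal, namely counts divided by the DESeq2 (1.26.0) size factors of each library (0.747 to 1.13). They gave back whole reads within 0.1 for 100% of values. The table also had 5 rows of reads on no gene (22.4% to 26.2% of reads per library), which were left out, and 3 columns that match no sample and were not used. Of 24520 genes with any read, 12673 had at least 10 normalised reads in at least 3 libraries. They were tested with limma (3.58.1, trend) on log2(normalised reads + 1), with a mean per group over 15 libraries, Benjamini-Hochberg adjustment over all tested genes and calls at adjusted p under 0.05. edgeR (4.0.16) and DESeq2 (1.42.0) on recovered reads were alternatives, as were pseudocounts 0.1 and 5, no filter, a minimum of 50, quantile normalisation, the compared groups only, a replicate block, an absolute log2 change of at least 1 and leaving out each library. Group ratios of few reads carry exact 95% intervals, which cover counting error only. On simulated counts with 200 genes changed in the C1 dKO comparison of 12673 genes, limma called 85% of 2-fold and 98% of 4-fold changes. The changed genes were drawn from those averaging at least 10 normalised reads over the groups, so these shares do not cover lower genes. For 2-fold changes it called 80% in the C2 dKO comparison, 83% in LAPS against dKO and 66% for the difference between clones. Genes were named as all 8 members, as pathway genes called the same way in both clones at log2 1 or more and the next 5 by size in LAPS against dKO, and as the 3 genes most like each member. 1 gene first placed on the pathway list is not reported here and was left out of its counts. The members and lists were chosen with earlier results of these data known. Gene positions are from GENCODE vM21 (mm10) and promoters from RefSeq. The python version was 3.11.15.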

Additional observations from a re-analysis of the deposited data

Results flagged for a closer look

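The difference between dKO and WT cells was not the same in clones C1 and C2 for 4 genes, each by the test of the difference itself in limma, beside 15.1% of all tested genes with a higher and 14.3% with a lower effect in C2. As C2 minus C1 on the log2 scale, the difference was -1.29 for Igf1r, -1.93 for Igf2r, -0.93 for Irs2 and 0.75 for Igf2bp3. The Igf2r call was lost in DESeq2 (adjusted p = 0.0538) and the Irs2 call in edgeR and in 7 of 12 omissions of a library (adjusted p up to 0.109). Igf1r was called in both clones, in opposite directions, as were 2.12% of all tested genes with that order of signs. Igf2r was called in C1 alone, Irs2 and Igf2bp3 in C2 alone. Igf1 is left out, since it entered the test through C1 WT cells alone. Each clone is 1 line from 1 mouse, so clone and mouse cannot be told apart.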

How the results depend on the processing

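Depth limits Igf1 and Igf2bp2 outside C1 WT cells (at most 5 reads per library), Igf2r (2 to 42 reads) and Irs1 (1 read in all). The 36 tested fold changes of the members, Igf1 included, were compared over all alternatives. Of these values, 548 kept direction and call, 44 lost the call, 2 gained it and 6 changed sign, none of the last called. Changed signs came from quantile normalisation for Igf1 in C2 (0.17) and for Igf2bp3 in LAPS against WT (0.00068), and from omitted libraries for Igf1 in C2 (range -0.50 to 0.33), Igf2r in C2 (-0.80 to 0.066) and Igfbp4 in LAPS against dKO (-0.036 to 0.066).

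The counts below include Igf1, whose differences from C1 WT its selection built in. The count of members lower in C1 dKO cells, 1, became 2 with no filter, which adds Igf2bp2, and 0 with the minimum of 50, which drops Igf1. The count lower in LAPS against WT, 1, became 2 with no filter, 0 with the minimum of 50 and 0 with pseudocount 0.1. Members higher in LAPS against dKO, 2, became 1 with pseudocount 0.1, no filter or the minimum of 50, and ranged from 1 to 1 with a library left out, Igf2r being the one lost. Members with a higher effect in C2, 2, became 1 with the minimum of 50, edgeR, DESeq2 and the fold limit. The fold limit of log2 1 left 1 of 2 higher and 1 of 2 lower in C2. Members higher in C2 WT than C1 WT, 2, became 1 with either other pseudocount, no filter, the minimum of 50, edgeR and DESeq2, and ranged from 1 to 1 with a library left out. The Irs2 clone difference lost its call with no filter, quantile normalisation, the compared groups only or edgeR (adjusted p 0.0521 to 0.0721). Causes were not tested beyond genes entering or leaving the test.

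For the pathway list, the fold limit lowered 12 and 11 calls in C1 to 3 and 4, 11 and 13 in C2 to 5 and 3, the 9 and 10 clone differences to 5 and 2, 11 and 9 in LAPS against WT to 5 and 3, and 15 and 20 between WT cells to 5 and 5. In LAPS against dKO, 3 higher became 5 (pseudocount 5) or 1 (compared groups only; Ghr and Inppl1 lost), and 3 lower became 1 (no filter, fold limit, or without C1 dKO replicate 2 or 3 or C1 LAPS replicate 2 or 3) or 0 (compared groups only). In LAPS against WT, 11 higher became 17 (quantile normalisation) or 7 (compared groups only).

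Replicate numbers recur across groups, but deviations of same-numbered samples correlated from -0.17 to 0.30 with both signs, so the numbers share a name only. With the replicate number as a block, the 36 fold changes kept their calls and all counts stayed within 1.5 times. Members were 3 higher and 1 lower in C1 and 2 and 2 in C2. The 1 lower in C1 is Igf1, whose difference from C1 WT its selection built in.
On recovered reads edgeR called 2219 genes higher and 2460 lower in C1 dKO cells, 2278 and 2470 in C2, and 198 and 402 in LAPS against dKO, where limma called 181 and 384.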
